A study of Mus musculus with 9 samples.

Results

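The 35 interferon-stimulated genes described here are well-known targets of interferon signalling, named by symbol from textbook lists. The choice was made with earlier results of these data known. All 35 were present among the 34198 gene symbols in the deposited table, and all 35 entered the tests, as did 12925 genes in all. RNA was sequenced from microdissected atrioventricular (AV) nodes, the tissue that delays and relays the cardiac impulse, of C57BL/6J mice. The groups were macrophage-depleted Cd11bDTR mice (libraries 7, 8 and 9), Cx3cr1 Cx43-/- mice (libraries 4, 5 and 6) and control mice (libraries 1, 2 and 3). In Cd11bDTR mice the Cd11b promoter, active in monocytes and neutrophils as well as in macrophages, drives a receptor for diphtheria toxin. In Cx3cr1 Cx43-/- mice only cells that express Cx3cr1, mostly macrophages, lose Gja1, the gene of the gap junction protein connexin 43. Toxin or inducer doses and times, ages, any allele or agent given to the control mice, and whether nodes were pooled are not given in the sources used here. The p-values set the difference between group means against the spread among libraries of the same group, estimated jointly over the 3 groups.

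Interferons are secreted signals that cells release on sensing foreign or misplaced nucleic acid. Type I interferons act through the receptor chains Ifnar1 and Ifnar2 and the kinases Jak1 and Tyk2, after which a complex that holds Stat2 and Irf9 binds the interferon-stimulated response element in target promoters. Interferon gamma, the type II interferon, acts through Ifngr1 and Ifngr2 and the gamma-activated site (GAS) in its target promoters. The targets include sensors and effectors that restrict viruses, proteins that restrict intracellular microbes, and factors that turn the pathway up or down. Macrophages are among the cells that express many of them.

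The promoters below are shown because they carry the response element through which these genes are known to be induced, in genes with a positive (Isg15, Ifitm3 and Ifit1) and a negative (Stat2 and Gbp2) log2 change after macrophage depletion as deposited. The sequences are those of RefSeq on GRCm38.p6, 250 bases before to 30 bases after the annotated start of transcription, on the strand of the gene. Isg15 lies at chr4:156200789-156201068 on the minus strand and Ifitm3 at chr7:141010715-141010994 on the minus strand. Ifit1 lies at chr19:34640639-34640918, Stat2 at chr10:128270248-128270527 and Gbp2 at chr3:142620413-142620692, each on the plus strand. Capitals mark every match to the core of the response element, GAAA followed after any 2 bases by GAAA. Both strands were read, so that TTTC followed after 2 bases by TTTC is the same motif on the opposite strand.
Isg15: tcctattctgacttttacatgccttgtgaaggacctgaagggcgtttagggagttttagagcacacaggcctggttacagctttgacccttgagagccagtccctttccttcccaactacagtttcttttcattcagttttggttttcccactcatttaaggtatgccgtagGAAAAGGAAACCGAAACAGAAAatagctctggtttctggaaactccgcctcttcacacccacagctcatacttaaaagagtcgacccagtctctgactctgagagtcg
Ifitm3: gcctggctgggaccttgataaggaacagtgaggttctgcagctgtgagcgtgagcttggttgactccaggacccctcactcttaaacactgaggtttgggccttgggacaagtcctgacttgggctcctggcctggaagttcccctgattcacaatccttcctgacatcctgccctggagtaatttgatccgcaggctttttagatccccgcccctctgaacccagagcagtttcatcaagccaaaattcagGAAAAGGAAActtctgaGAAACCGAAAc
Ifit1: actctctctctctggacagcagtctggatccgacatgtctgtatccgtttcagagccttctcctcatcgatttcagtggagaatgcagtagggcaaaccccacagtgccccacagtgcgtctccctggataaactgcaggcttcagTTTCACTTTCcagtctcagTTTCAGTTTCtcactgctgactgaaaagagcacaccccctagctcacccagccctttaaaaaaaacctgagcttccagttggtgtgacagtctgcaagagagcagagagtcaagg
Stat2: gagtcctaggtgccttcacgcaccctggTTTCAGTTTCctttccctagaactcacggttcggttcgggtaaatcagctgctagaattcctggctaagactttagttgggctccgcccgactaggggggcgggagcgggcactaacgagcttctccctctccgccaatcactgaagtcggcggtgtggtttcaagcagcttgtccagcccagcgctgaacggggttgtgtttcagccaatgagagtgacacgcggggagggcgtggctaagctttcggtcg
Gbp2: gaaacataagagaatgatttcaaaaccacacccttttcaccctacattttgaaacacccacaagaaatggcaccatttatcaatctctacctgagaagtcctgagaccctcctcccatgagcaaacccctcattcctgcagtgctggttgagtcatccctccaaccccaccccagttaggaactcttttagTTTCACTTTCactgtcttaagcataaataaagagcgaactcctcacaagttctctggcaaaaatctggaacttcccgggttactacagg

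Isg15 held 3 overlapping matches that begin 78, 72 and 66 bases before the start. Ifit1 held 2 matches at 104 and 85 bases before it, Gbp2 1 match at 59 bases before it and Stat2 1 match at 222 bases before it. In Ifitm3 the 2 matches lay 2 and 19 bases after the annotated start. Of the 26 members with an entry in the promoter table, 15 (57.7%) held the motif within 300 bases, beside 1079 of 27025 genes (3.99%) in the whole table. The core of the GAS, TTCNNNGAA, reads the same on both strands and can share bases with the first motif; it was found in 9 of the 26 (34.6%), beside 9.55% of all genes. Members with an entry and without the first motif were Irf9, Irf7, Irf1, Ifit2, Oasl2, Trim25, Cmpk2, Samhd1, Ifi44, Xaf1 and Ifi35. Dhx58, Zbp1, Oas2, Usp18, Mx1, Mx2, Iigp1, Rtp4 and Parp14 had no entry.

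Values are CPM, read counts scaled to the depth of each library, as deposited. Listed genes took 28.3% to 48.7% of the CPM denominator, with the lowest share in depleted library 9, which was also the lowest of the 9 libraries for 56.5% of tested genes. Over all tested genes the median of depleted over control was -0.49 on the log2 scale, and -0.33 without library 9. The tests were run on the deposited scale and on 2 others. The first rescaled the listed genes of each library to a common total, where that median was -0.18. The second was median-of-ratios scaling, which centres the typical gene and left that median at -0.04. In limma, with p-values adjusted by the method of Benjamini and Hochberg over all tested genes, an adjusted p under 0.05 counted as a call. A read was worth 0.0154 to 0.0192 CPM, so that a value of 1 CPM rested on about 52.1 to 64.9 reads and 3 reads came to between 0.0462 and 0.0576 CPM.

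The labels were checked against marker genes. The 17 resident macrophage genes measured summed to 81.1 to 93.8 CPM in depleted libraries. Their sums were 491 to 653 CPM in Cx3cr1 Cx43-/- and 318 to 510 CPM in control libraries. As deposited, 14 of the 17 were called lower in depleted than in control nodes, beside 33.0% of all tested genes. Gja1 stood at 89.9, 56.8 and 68.3 CPM in depleted nodes, at 179, 229 and 249.99 CPM in Cx3cr1 Cx43-/- nodes and at 246, 163 and 211 CPM in control nodes, so the whole-node level did not show the deletion confined to one cell type. Cx3cr1 ranged from 1.42 to 2.93 CPM in depleted, 2.74 to 5.87 CPM in Cx3cr1 Cx43-/- and 3.61 to 7.01 CPM in control nodes. Hbegf, the gene whose human or simian form is the receptor for diphtheria toxin, had 53.8, 27.7 and 18.8 CPM in depleted nodes. It had 10.1, 13.3 and 11.8 CPM in Cx3cr1 Cx43-/- and 10.4, 13.9 and 13.9 CPM in control nodes. Depleted over control was 1.24 in limma (SE 0.29, adjusted p = 0.00245). Reads of the mouse gene and of the receptor transgene cannot be told apart in these values. Itgam, which encodes Cd11b, ranged from 2.34 to 9.72, 7.57 to 11.4 and 1.64 to 8.93 CPM in depleted, Cx3cr1 Cx43-/- and control nodes and was called in no comparison. The node genes Hcn4 (1.80 to 3.80 CPM in depleted and 15.5 to 19.3 CPM in control nodes) and Tbx3 (11.6 to 16.3 and 30.1 to 37.9 CPM) were present in all 9 libraries, and the 12 node genes summed to 158 to 279 CPM in depleted, 496 to 606 CPM in Cx3cr1 Cx43-/- and 529 to 706 CPM in control nodes. In whole tissue, fewer cells of a type and less RNA per cell cannot be told apart.

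The first comparison asked whether these genes differed between macrophage-depleted and control nodes. Ifitm3, Zbp1 and Isg15 were higher in depleted than in control nodes on every scale tried. They encode a membrane protein that blocks virus entry, a sensor of Z-form nucleic acid and a ubiquitin-like modifier. Irf7, Irf9, Oasl2, Ifih1, Usp18 and Rtp4 were also called higher once the libraries were rescaled. The listed guanylate-binding proteins and immunity-related GTPases (Gbp2, Gbp3, Igtp, Irgm1 and Iigp1), typical targets of interferon gamma, were called on none of the scales. Gbp4 and Gbp9, which are not among the 35, were called lower on every scale. On the deposited scale 3 of the 35 genes were called higher and 1, Stat2, lower. Over all tested genes 3.23% were called higher, 33.0% lower and 36.2% in either direction. After rescaling to a common total 9 were called higher and 0 lower, beside 8.79%, 19.6% and 28.4% of all genes called higher, lower and either way. With median-of-ratios scaling 11 were called higher and 0 lower, beside 13% of all genes in each direction and 26.0% in either. The median of the 35 log2 changes was -0.15 on the deposited scale, against -0.49 over all tested genes, and 27 of the 35 lay above that median of all genes. Without depleted library 9 the members' median exceeded that of all genes by 0.09 in place of 0.33, and by 0.04 in place of 0.36 with median-of-ratios scaling.

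**Figure D1:**
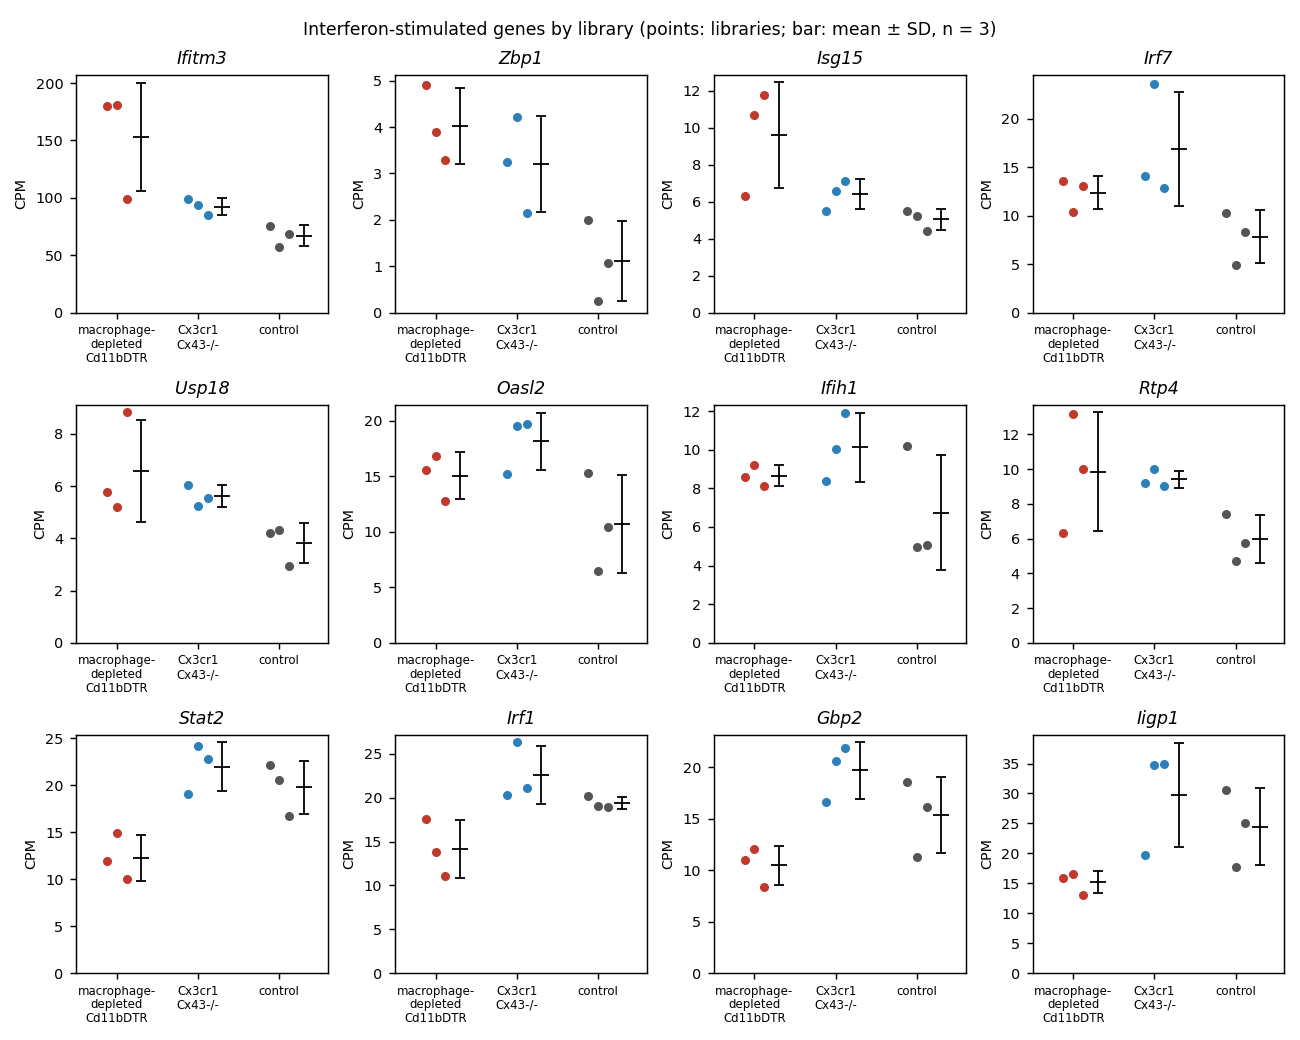
CPM (vertical axes, starting at 0) of 12 interferon-stimulated genes in macrophage-depleted, Cx3cr1 Cx43-/- and control libraries; points are libraries and bars the mean ± SD of 3. Depleted libraries lie above all control libraries for Ifitm3, Zbp1, Isg15, Irf7 and Usp18, and below them for Stat2, Irf1 and Iigp1.

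Among the signalling and transcription factors, Stat2 had 11.9, 14.9 and 10.02 CPM in depleted nodes, 19.1, 24.1 and 22.8 CPM in Cx3cr1 Cx43-/- nodes and 22.1, 20.5 and 16.7 CPM in control nodes. All 3 depleted libraries lay below the other 6, and the log2 change over control was -0.67 (SE 0.23, adjusted p = 0.027). That call was lost on both other scales (log2 change -0.20 and adjusted p = 0.432 with median-of-ratios scaling) and without control library 1 or 2. Irf7, the factor that amplifies type I interferon production, had 13.6, 10.4 and 13.1 CPM in depleted nodes, 14.1, 23.7 and 12.9 CPM in Cx3cr1 Cx43-/- nodes and 10.3, 4.95 and 8.34 CPM in control nodes. Each control library lay below all 6 others, and depleted over control was 0.67 (SE 0.29, adjusted p = 0.0694) as deposited and 1.14 (SE 0.26, adjusted p = 0.00489) with median-of-ratios scaling. Irf9, the DNA-binding partner of Stat2, had 23.8, 23.6 and 15.4 CPM in depleted, 18.6, 20.3 and 23.5 CPM in Cx3cr1 Cx43-/- and 21.5, 15.5 and 15.9 CPM in control nodes. These ranges overlapped, and Irf9 was called with median-of-ratios scaling (0.71, SE 0.15, adjusted p = 0.00329) and not as deposited (0.23, adjusted p = 0.455). Irf1, a factor induced by interferon gamma, had 17.6, 13.8 and 11.01 CPM in depleted, 20.3, 26.4 and 21.1 CPM in Cx3cr1 Cx43-/- and 20.1, 19.1 and 18.9 CPM in control nodes. The 3 groups did not overlap in any pair, yet Irf1 was not called against control on any scale (-0.47, SE 0.23, adjusted p = 0.114 as deposited).

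Of the 4 nucleic acid sensors, Zbp1 had 4.90, 3.89 and 3.28 CPM in depleted nodes, 3.24, 4.21 and 2.14 CPM in Cx3cr1 Cx43-/- nodes and 2, 0.26 and 1.08 CPM in control nodes. Its control libraries were the lowest 3 of 9, and depleted over control was 1.63 (SE 0.40, adjusted p = 0.00369), a call kept whichever library was left out and on each scale. Control library 2, at 0.26 CPM, rested on few reads. Ifih1, the long double-stranded RNA sensor Mda5, had 8.61, 9.21 and 8.13 CPM in depleted, 8.38, 10.1 and 11.9 CPM in Cx3cr1 Cx43-/- and 10.2, 4.98 and 5.06 CPM in control nodes. Control library 1 stood inside the range of the others, and depleted over control was 0.41 (adjusted p = 0.261) as deposited and 0.88 (SE 0.24, adjusted p = 0.0167) with median-of-ratios scaling, a call lost without control library 2 or 3. Ddx58, which encodes the RNA sensor RIG-I, had a negative value on the deposited scale, with 6.75, 11.8 and 9.64 CPM in depleted, 17.5, 17.02 and 19.1 CPM in Cx3cr1 Cx43-/- and 15.9, 11.7 and 11.7 CPM in control nodes. Depleted and control libraries touched at 11.7 to 11.8 CPM, and the difference of -0.47 was not called (adjusted p = 0.138). Dhx58, a regulator of both RNA sensors, ranged from 0.73 to 4.09 CPM over the 9 libraries and was not called.

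Of the ISG15 system, Isg15 itself had 6.33, 10.7 and 11.8 CPM in depleted nodes, 5.52, 6.59 and 7.11 CPM in Cx3cr1 Cx43-/- nodes and 5.52, 5.22 and 4.41 CPM in control nodes. Every depleted library exceeded every control library, and the log2 change was 0.82 (SE 0.29, adjusted p = 0.0283) as deposited and 1.29 (SE 0.30, adjusted p = 0.0062) with median-of-ratios scaling. The deposited call was lost without library 1, 3, 8 or 9, with an adjusted p of up to 0.108; the median-of-ratios call was kept in all 6 such fits. Usp18, the protease that removes ISG15 and restrains the type I receptor, had 5.78, 5.18 and 8.82 CPM in depleted, 6.06, 5.25 and 5.56 CPM in Cx3cr1 Cx43-/- and 4.21, 4.31 and 2.95 CPM in control nodes. Control was again the lowest group without overlap, and depleted over control was 0.70 (SE 0.30, adjusted p = 0.0685) as deposited and 1.15 (SE 0.31, adjusted p = 0.0133) with median-of-ratios scaling, a call lost without library 3. Trim25, a ubiquitin ligase of the RIG-I pathway, ranged from 15.0 to 29.7 CPM over all libraries and was not called.

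Ifitm3 was the most abundant member and had the smallest p. It had 180.1, 181 and 99.1 CPM in depleted nodes, 98.9, 93.4 and 84.7 CPM in Cx3cr1 Cx43-/- nodes and 75.4, 56.9 and 68.6 CPM in control nodes. The groups were ordered without overlap, depleted above Cx3cr1 Cx43-/- above control, though depleted library 9 lay just above the highest Cx3cr1 Cx43-/- library. Depleted over control was 1.15 (SE 0.23, adjusted p = 0.000616) as deposited and 1.63 (SE 0.13, adjusted p = 1.05e-06) with median-of-ratios scaling, and it stayed called whichever library was left out. Of its transcript, 10.02% of 50-base stretches recur in other genes or pseudogenes, so part of its count is uncertain. Bst2 (tetherin), which holds budding virus at the cell surface, had 21.4, 34.0 and 19.5 CPM in depleted, 27.2, 33.9 and 21.8 CPM in Cx3cr1 Cx43-/- and 22.8, 18.02 and 21.6 CPM in control nodes. Its groups overlapped, and it was called with median-of-ratios scaling (0.70, SE 0.20, adjusted p = 0.0189) and lost without library 1, 2 or 8.

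Of the 7 genes that bind foreign RNA or block translation, 0 were called as deposited and 2, Oasl2 and Ifit1, with median-of-ratios scaling. Oasl2, of the oligoadenylate synthetase family, had 15.6, 16.9 and 12.8 CPM in depleted, 15.2, 19.6 and 19.7 CPM in Cx3cr1 Cx43-/- and 15.3, 6.51 and 10.4 CPM in control nodes. Control library 1 again stood among the other groups, and depleted over control was 0.54 (adjusted p = 0.118) as deposited and 1.02 (SE 0.21, adjusted p = 0.00311) with median-of-ratios scaling. Ifit1, which binds uncapped or unmethylated RNA, had 4.69, 6.29 and 16.8 CPM in depleted, 6.32, 6.66 and 7.70 CPM in Cx3cr1 Cx43-/- and 7.14, 2.40 and 4.01 CPM in control nodes. Depleted library 9 was far above the rest, and the median-of-ratios call (1.33, SE 0.45, adjusted p = 0.0414) was lost without library 2, 3 or 9. Its relative Ifit3, with no protein-coding gene between it and Ifit2 on chromosome 19, was also highest in library 9 (14.9 CPM, against 4.57 and 8.75 CPM in libraries 7 and 8 and 4.56 to 6.22 CPM in control), but 51.2% of its 50-base stretches are shared with Ifit3b. Ifit2 had 8.14, 7.46 and 9.27 CPM in depleted, 10.1, 14.2 and 16.1 CPM in Cx3cr1 Cx43-/- and 13.1, 9.13 and 8.88 CPM in control nodes. As deposited, library 9 was not the highest for Ifit2, whereas after median-of-ratios scaling it was the highest of all 9. Oas1a, at 1.26, 0 and 0.52 CPM in depleted, 1.91, 1.75 and 1.76 CPM in Cx3cr1 Cx43-/- and 1.98, 0.78 and 1.15 CPM in control nodes, was near the floor and shares 57.6% of its stretches with Oas1g. Eif2ak2, the kinase PKR that halts translation, had 5.82, 5.24 and 6.44 CPM in depleted nodes, below the 7.42, 7.85 and 9.14 CPM of Cx3cr1 Cx43-/- nodes and among the 7.34, 4.26 and 4.85 CPM of control nodes. Oas2 overlapped likewise, and neither was called.

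The 2 guanylate-binding proteins and 3 immunity-related GTPases, which attack vacuoles of intracellular microbes, had log2 changes of -0.51 to -0.64 as deposited, close to the -0.49 of all genes, and 0 of 5 were called on any scale. Gbp2 had 10.97, 12.03 and 8.36 CPM in depleted, 16.6, 20.6 and 21.9 CPM in Cx3cr1 Cx43-/- and 18.6, 11.3 and 16.1 CPM in control nodes. Gbp3 had 6.14, 5.49 and 10.6 CPM in depleted, 9.96, 13.3 and 13.6 CPM in Cx3cr1 Cx43-/- and 12.7, 10.3 and 8.57 CPM in control nodes. In both, 1 depleted library overlapped control. Igtp had 10.3, 3.49 and 9.64 CPM in depleted, 11.6, 16.4 and 13.9 CPM in Cx3cr1 Cx43-/- and 13.2, 9.72 and 9.19 CPM in control nodes, and 12.3% of its stretches recur in Irgm2. Irgm1 had 9.28, 7.27 and 11.04 CPM in depleted, 14.3, 19.6 and 17.5 CPM in Cx3cr1 Cx43-/- and 21.3, 9.45 and 14.1 CPM in control nodes. Iigp1 had 16.0, 16.5 and 13.1 CPM in depleted, 19.8, 34.8 and 34.9 CPM in Cx3cr1 Cx43-/- and 30.5, 17.7 and 25.1 CPM in control nodes. For Iigp1 alone of the 5 did all depleted libraries lie below all control libraries (-0.64, SE 0.25, adjusted p = 0.0514).

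The Mx GTPases, dynamin-like proteins that trap viral nucleocapsids, stood near 1 CPM: Mx1 from 0 to 1.82 CPM and Mx2 from 0.77 to 2.36 CPM over the 9 libraries, neither called. Rsad2 (viperin), the nucleotide kinase Cmpk2 beside it on the chromosome, and Samhd1, which depletes the nucleotide pool that viruses need, had changes of -0.38 to -0.45 and were not called. Of the remaining genes Rtp4, a chaperone of membrane receptors, had 6.35, 13.2 and 9.98 CPM in depleted, 9.20, 9.99 and 9.02 CPM in Cx3cr1 Cx43-/- and 7.44, 4.69 and 5.76 CPM in control nodes. Depleted library 7 lay inside the control range, and Rtp4 was called with median-of-ratios scaling (1.11, SE 0.28, adjusted p = 0.0102) and not as deposited (0.64, adjusted p = 0.0799). Parp14, Ifi44, Ifi35 and Xaf1 had changes between -0.59 and 0.01 as deposited and were not called.

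**Figure D2:**
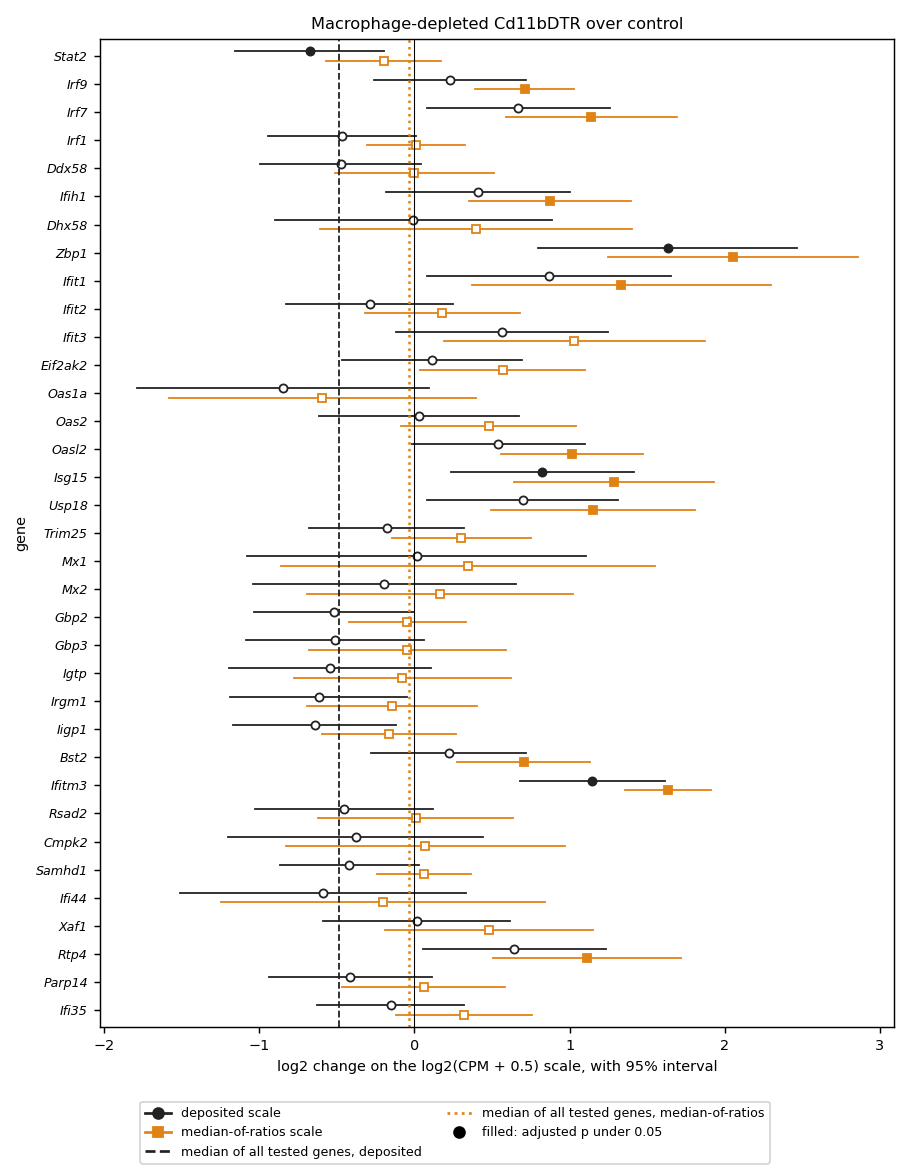
Log2 change (horizontal axis, with unadjusted 95% intervals) of each of the 35 genes in macrophage-depleted over control nodes, as deposited (circles) and with median-of-ratios scaling (squares); filled symbols were called, and the vertical lines mark the median of all tested genes. On both scales Zbp1 and Ifitm3 lie farthest to the right, at 1.63 and 1.15 as deposited, and the 5 guanylate-binding proteins and immunity-related GTPases lie close to the line of all genes.

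Over all 35 genes, 5 had depleted libraries that all exceeded the control libraries and 3 had depleted libraries all below them. Among all tested genes these shares were 3.61% and 38.0%.

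The second comparison set depleted against Cx3cr1 Cx43-/- nodes, in which 0 of the resident macrophage genes were called against control. As deposited, Ifitm3 was higher and 14 genes were lower in depleted nodes, among them all 5 guanylate-binding proteins and immunity-related GTPases, Stat2, Irf1 and Ddx58. After rescaling, 0 of the 14 were called lower and Isg15 was called higher beside Ifitm3. Over all tested genes 2.69% were called higher, 40.7% lower and 43.4% either way as deposited, so 14 of 35 is near the share of all genes. The median of the members was -0.47, against -0.58 for all tested genes. After rescaling to a common total 2 members were called higher and 0 lower, beside 8.47%, 20.9% and 29.4% of all genes called higher, lower and either way. With median-of-ratios scaling 3 were called higher and 0 lower, beside 13.1%, 12.9% and 26.0%. Without depleted library 9 the members' median lay 0.09 below that of all genes as deposited in place of 0.11 above it (difference -0.09), and 6 members were called lower with a common total and 1 with median-of-ratios scaling.

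The falls with the smallest p as deposited were those of Ddx58 (-0.93, SE 0.25, adjusted p = 0.00587), Iigp1 (-0.91, SE 0.25, adjusted p = 0.00709), Gbp2 (-0.89, SE 0.25, adjusted p = 0.00723) and Stat2 (-0.83, SE 0.23, adjusted p = 0.00738). Ddx58 and Gbp2 kept the call whichever library was left out. The other 12 each lost it without Cx3cr1 Cx43-/- library 5, and all of these but Stat2 also without library 6. Irf1 (-0.67, SE 0.23), Irgm1 (-0.87, SE 0.28), Igtp (-0.91, SE 0.32) and Gbp3 (-0.73, SE 0.28) were called with adjusted p between 0.0148 and 0.0371. Parp14, an ADP-ribosyl transferase, was at 8.27, 12.8 and 12.2 CPM in depleted, 16.5, 21.4 and 22.8 CPM in Cx3cr1 Cx43-/- and 17.8, 11.01 and 16.2 CPM in control nodes (-0.85, SE 0.25, adjusted p = 0.0111). Rsad2 was at 4.80, 4.60 and 7.62 CPM in depleted, 8.12, 9.29 and 12.1 CPM in Cx3cr1 Cx43-/- and 7.62, 8.66 and 7.05 CPM in control nodes (-0.76, SE 0.28, adjusted p = 0.0316). In both, every Cx3cr1 Cx43-/- library exceeded every depleted library. Samhd1 was at 23.4, 19.0 and 18.7 CPM in depleted, 27.6, 34.9 and 30.1 CPM in Cx3cr1 Cx43-/- and 32.7, 23.3 and 26.6 CPM in control nodes (-0.59, SE 0.22, adjusted p = 0.0327). Ifi44 was at 2.67, 0.36 and 2.43 CPM in depleted, 3.69, 4.03 and 3.66 CPM in Cx3cr1 Cx43-/- and 3.82, 1.17 and 3.26 CPM in control nodes (-1.10, SE 0.45, adjusted p = 0.0489). Depleted library 8 was the low one for Ifi44. Oas1a (-1.26, SE 0.46, adjusted p = 0.0303) and Ifit2 (-0.65, SE 0.26, adjusted p = 0.0475) completed the 14.

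Ifitm3 was higher by 0.68 (SE 0.23, adjusted p = 0.0201) as deposited and by 1.24 (SE 0.13, adjusted p = 1.36e-05) with median-of-ratios scaling. The deposited call was lost without library 5, 6, 7 or 8, and the median-of-ratios call in no such fit. Isg15 was at 0.51 (adjusted p = 0.147) as deposited and 1.05 (SE 0.30, adjusted p = 0.0194) with median-of-ratios scaling, a call lost without library 4, 5, 8 or 9. Its call with a common total was lost without library 4, 5, 6, 8 or 9. Irf9 was at -0.01 (SE 0.24, adjusted p = 0.973) as deposited, which gave no direction. It was called higher with median-of-ratios scaling (0.54, SE 0.15, adjusted p = 0.0156). The call was lost without library 4 or 5. Depleted libraries lay above all Cx3cr1 Cx43-/- libraries for 1 member and below them for 16, beside 3.39% and 50.6% of all tested genes. Cmpk2, at 3.21, 4.01 and 4.45 CPM in depleted, 5.19, 8.39 and 11.5 CPM in Cx3cr1 Cx43-/- and 8.46, 1.88 and 8.06 CPM in control nodes, Eif2ak2 and Ifi35 were among the 16 without being called.

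**Figure D3:**
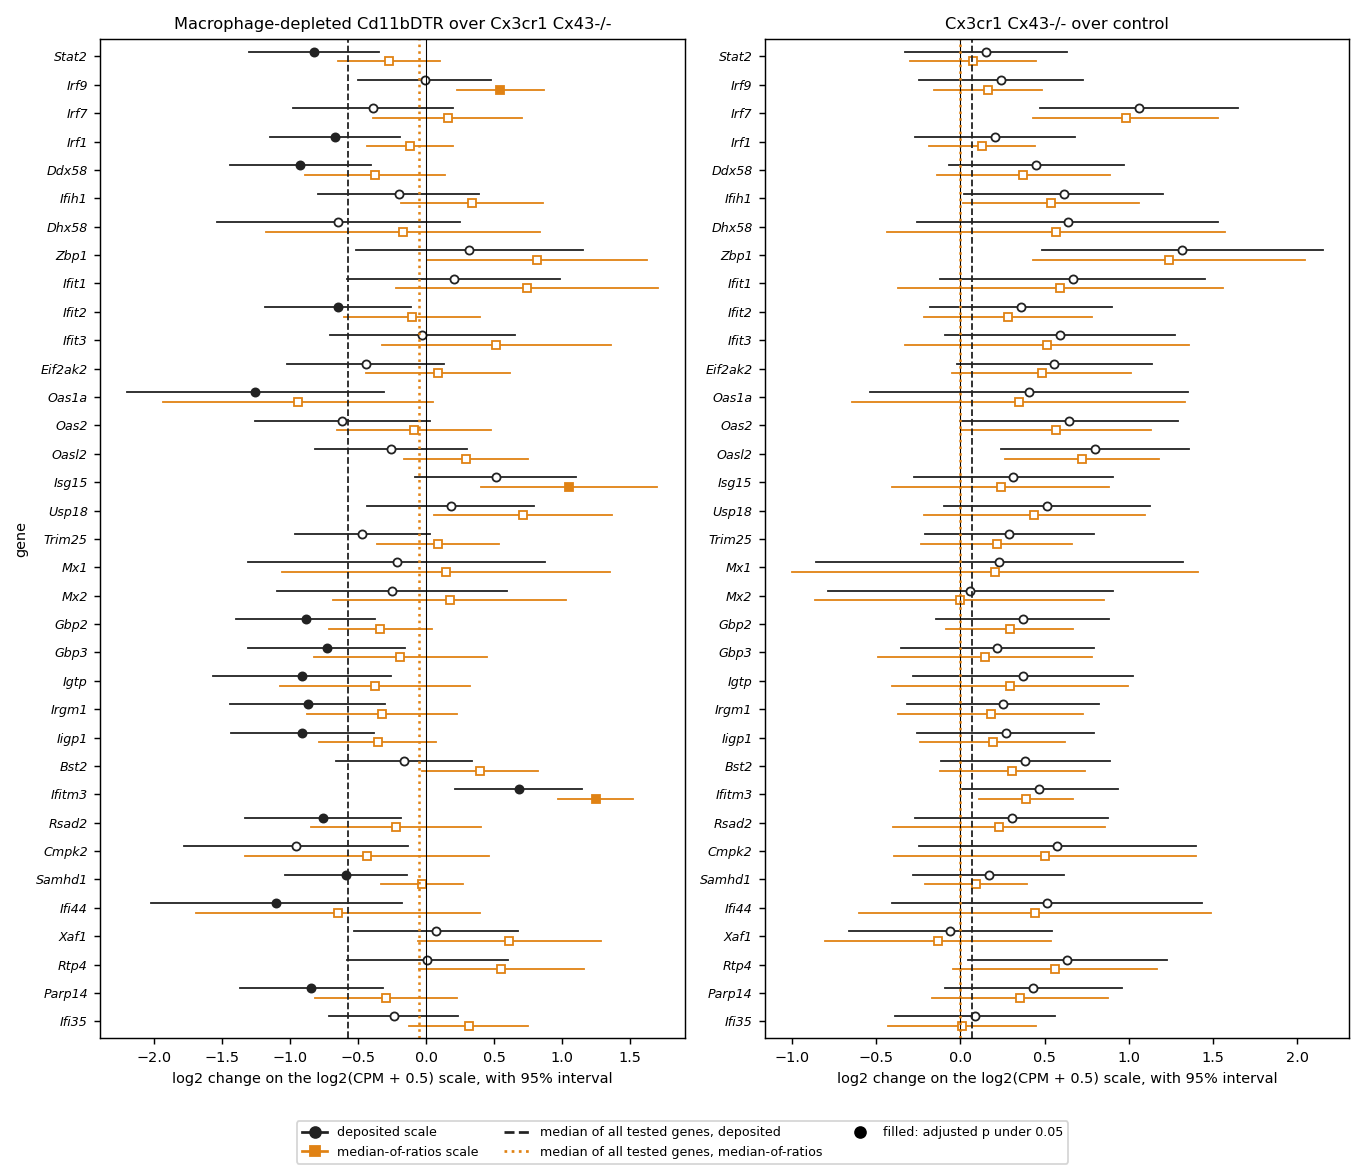
Log2 changes (horizontal axes, with unadjusted 95% intervals) of the 35 genes in macrophage-depleted over Cx3cr1 Cx43-/- nodes (left) and in Cx3cr1 Cx43-/- over control nodes (right), as deposited (circles) and with median-of-ratios scaling (squares); filled symbols were called and vertical lines mark the median of all tested genes. On the left 14 genes are called lower as deposited and 0 with median-of-ratios scaling, and on the right 34 of 35 circles lie above 0 with 0 called.

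The third comparison asked whether deletion of connexin 43 in Cx3cr1-expressing cells went with a change of these genes. With limma, 0 of the 35 were called on any scale (0% of all tested genes were called higher, 0.00774% lower and 0.00774% either way), and 5 members had an unadjusted p under 0.05 as deposited, as did 191 of all tested genes. With median-of-ratios scaling 33 of the 35 values were nevertheless above 0, with a median of 0.31 against -0.002 for all tested genes. As deposited 34 of the 35 were above 0, with a median log2 change of 0.39. The median of all tested genes was 0.07 as deposited, so most of them also lay above 0. These deposited values of the members are given next. The largest were those of Zbp1 (1.32, SE 0.40), Irf7 (1.06, SE 0.29) and Oasl2 (0.80, SE 0.27), each with an adjusted p of 1, and Xaf1 was the exception (-0.06, SE 0.29). All 3 Cx3cr1 Cx43-/- libraries exceeded all 3 control libraries for Irf7, Irf1, Ddx58, Zbp1, Ifit3, Eif2ak2, Usp18, Ifitm3 and Rtp4, which makes 9 of 35 beside 5.94% of all tested genes, and lay below them for 0, beside 3%. Control library 2 was the lowest of all 9 libraries for 12 of the 35 genes, and it was the lowest for 10.48% of tested genes. Without it 32 of 35 were above 0, with a median of 0.28 against 0.00 for all tested genes. Library 6 was the highest of all 9 for 13 members and for 8.70% of all tested genes.

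Marker genes of other cells were summed in the same comparison, and 0 of them were called. The 6 erythroid genes summed to 17.6 to 31.4 CPM in Cx3cr1 Cx43-/- and 4.44 to 16.4 CPM in control nodes, the 8 fibroblast genes to 3581 to 3738 and 2759 to 3253 CPM, and the resident macrophage genes to 491 to 653 and 318 to 510 CPM. Not every list stood higher. The 12 node genes summed to 496 to 606 and 529 to 706 CPM, and the 10 cardiomyocyte genes to 39033 to 40502 and 33964 to 41535 CPM. The part of these cells in the result was not tested.

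**Figure D4:**
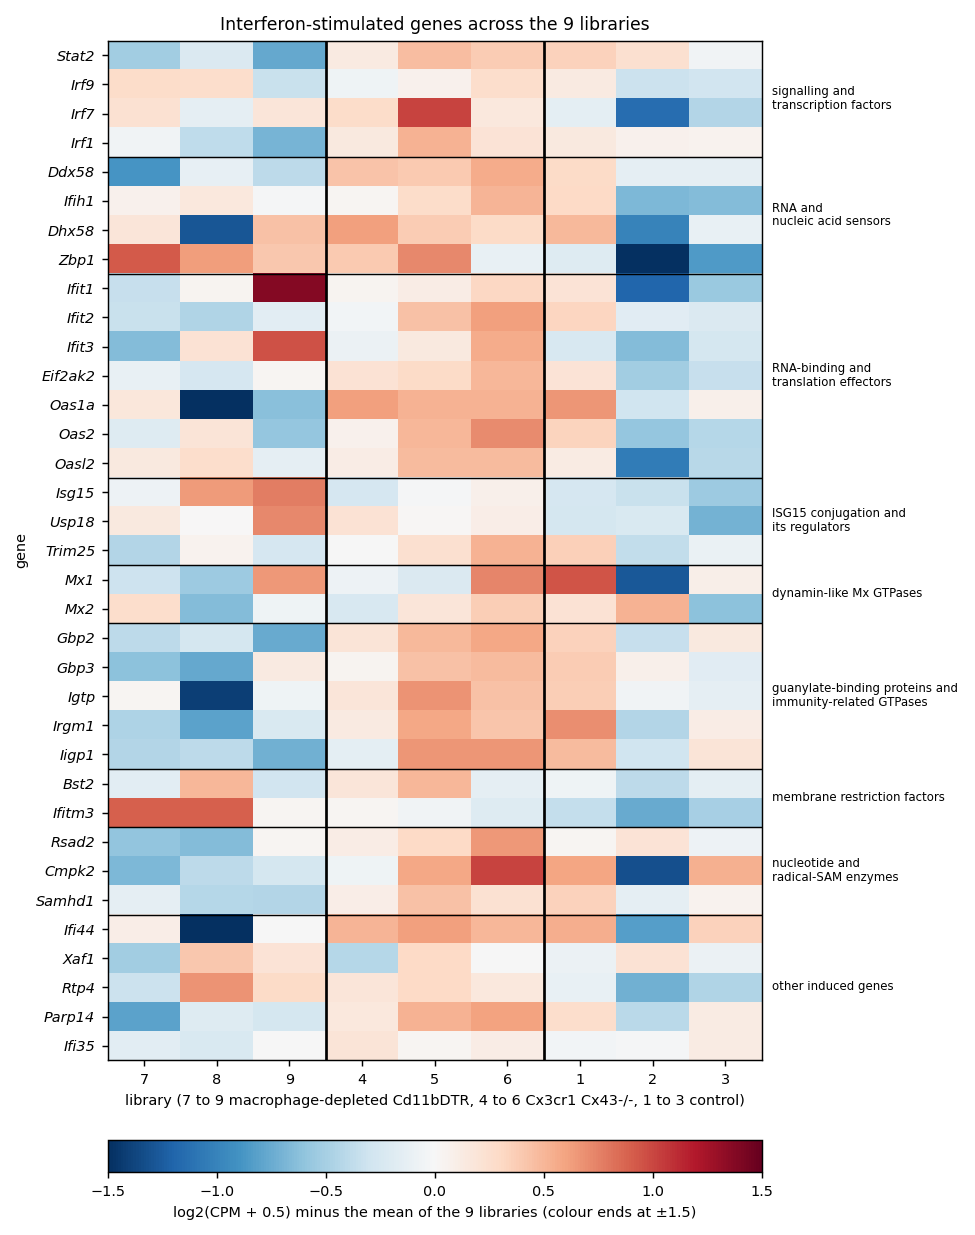
Log2(CPM + 0.5) of the 35 genes, grouped by role, minus the mean of the gene over the 9 libraries (colour, which ends at ±1.5), with macrophage-depleted libraries on the left, Cx3cr1 Cx43-/- in the middle and control on the right. Control library 2 is the lowest for 12 genes and Cx3cr1 Cx43-/- library 6 the highest for 13, and depleted library 9 stands out for Ifit1 and Ifit3.

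Within groups, the members as deposited varied less than the typical tested gene in depleted nodes and more in the other 2 groups. These spreads are given on the deposited scale only. The median coefficient of variation of the 35 was 27.0% in depleted nodes (31.2% over all tested genes), 15.5% in Cx3cr1 Cx43-/- nodes (11.02%) and 23.7% in control nodes (17.6%). The summed level of the 35 was 484, 513 and 428 CPM in depleted, 482, 577 and 557 CPM in Cx3cr1 Cx43-/- and 496, 343 and 399 CPM in control nodes. Without Ifitm3 these sums were 304, 332 and 329 CPM in depleted, 383, 484 and 472 CPM in Cx3cr1 Cx43-/- and 421, 286 and 331 CPM in control nodes. Ifitm3 alone gave 99.1 to 181 CPM of the depleted sums.

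The rest of the pathway was read from lists of its parts. Of the interferon genes themselves, 19 of the 23 listed were in the table, 16 were at 0 in all 9 libraries and 0 passed the filter. Interferon gamma (Ifng) was at 0.02 CPM in control library 1, Ifnk at 0.08 CPM in Cx3cr1 Cx43-/- library 6 and Ifnz at 0.23 CPM in depleted library 9, each at 0 in the other 8. The type I receptor chains were present, Ifnar1 at 17.2, 9.90 and 14.9 CPM in depleted, 19.1, 28.6 and 23.6 CPM in Cx3cr1 Cx43-/- and 23.6, 16.0 and 20.4 CPM in control nodes. Ifnar2 was at 17.8, 15.7 and 11.4 CPM in depleted, 14.7, 18.9 and 16.1 CPM in Cx3cr1 Cx43-/- and 17.1, 22.6 and 18.1 CPM in control nodes. Neither chain was called in depleted over control nodes (-0.52 with adjusted p = 0.106, and -0.37 with adjusted p = 0.226).

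Of 11 receptor, kinase and Stat genes tested, 0 were called higher and 5 lower in depleted over control nodes as deposited, and with median-of-ratios scaling 2 were higher and 3 lower. The shares of all tested genes were 3.23% higher and 33.0% lower as deposited, and 13% each way with median-of-ratios scaling. Ifngr2, the signalling chain of the interferon gamma receptor, had 39.4, 41.2 and 29.9 CPM in depleted, 87.0, 79.2 and 89.6 CPM in Cx3cr1 Cx43-/- and 85.5, 86.8 and 83.5 CPM in control nodes. The depleted libraries stood far below all others, with a log2 change over control of -1.21 (SE 0.20, adjusted p = 8.89e-05) as deposited and -0.73 (adjusted p = 0.000814) with median-of-ratios scaling. The kinase Tyk2 (-1.26, SE 0.26, adjusted p = 0.000924) and the shared receptor chain Il10rb (-1.001, SE 0.22, adjusted p = 0.00134) were also lower on every scale. Ifngr1, the ligand-binding chain, had 50.2, 63.1 and 34.9 CPM in depleted, 44.6, 49.8 and 45.5 CPM in Cx3cr1 Cx43-/- and 52.8, 36.1 and 43.5 CPM in control nodes, and it was called higher with median-of-ratios scaling (0.62, adjusted p = 0.00565) but not as deposited (0.14, adjusted p = 0.652). Against Cx3cr1 Cx43-/- nodes 6 of the 11 were called lower and 0 higher as deposited, beside 40.7% and 2.69% of all tested genes.

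Of 14 sensing receptors, adaptors, kinases and factors tested, 0 were called higher and 7 lower in depleted over control nodes as deposited, and 2 and 2 with median-of-ratios scaling, beside 3.23% and 33.0% of all tested genes as deposited and 13% each way with median-of-ratios scaling. Tlr7, the endosomal sensor of single-stranded RNA, had 0.12, 0.33 and 0.40 CPM in depleted, 4.21, 4.69 and 4.19 CPM in Cx3cr1 Cx43-/- and 3.23, 3.63 and 2.56 CPM in control nodes (-2.22, SE 0.36, adjusted p = 7.27e-05). Mavs, the adaptor of the cytoplasmic RNA sensors, had 21.7, 17.6 and 10.98 CPM in depleted, 27.5, 36.7 and 37.9 CPM in Cx3cr1 Cx43-/- and 37.7, 29.3 and 33.5 CPM in control nodes (-1.02, SE 0.24, adjusted p = 0.00275). Both were lower on all 3 scales and without overlap. The factors Irf5 (-1.10, SE 0.32, adjusted p = 0.0114) and Irf8 (-1.11, SE 0.35, adjusted p = 0.018), expressed in myeloid cells, were lower as deposited only. Against Cx3cr1 Cx43-/- nodes 9 of the 14 were called lower as deposited (40.7% of all tested genes), led by Tlr7 (-2.65), Mavs (-1.04), Tlr8 (-1.54) and Irf5 (-1.19).

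Of 10 negative regulators tested, 1 was called higher and 2 lower in depleted over control nodes as deposited, beside 3.23% and 33.0% of all tested genes. Socs3, an inhibitor of cytokine receptors induced mainly through Stat3, had 74.0, 30.5 and 16.6 CPM in depleted, 4.57, 6.74 and 8.05 CPM in Cx3cr1 Cx43-/- and 6.14, 6.06 and 5.08 CPM in control nodes (2.45, SE 0.36, adjusted p = 2.57e-05). All depleted libraries exceeded all others, over a wide range among themselves. Socs1, the inhibitor induced by interferon gamma, was lower as deposited (-1.07, SE 0.38, adjusted p = 0.0328) and not called with median-of-ratios scaling (-0.73, adjusted p = 0.166), and so was Nlrc5, the activator of class I antigen presentation (-0.94, SE 0.36, adjusted p = 0.0424, and -0.54, adjusted p = 0.285). Against Cx3cr1 Cx43-/- nodes Socs3 was higher (2.32, SE 0.36) and Nlrc5, Socs1 and Ptpn6 were lower as deposited, beside 2.69% and 40.7% of all tested genes.

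Of 51 other interferon-stimulated genes tested, 4 were called higher and 15 lower in depleted over control nodes as deposited, and 11 and 4 with median-of-ratios scaling. Of all tested genes 3.23% were called higher and 33.0% lower as deposited, and 13% each way with median-of-ratios scaling. Both directions held genes called on all 3 scales. Ifi205 and Ifi204 belong to the cluster of DNA-binding HIN-200 genes. In depleted nodes Ifi205 had 13.5, 12.4 and 6.28 CPM and Ifi204 had 12.6, 13.8 and 7.68 CPM. In control nodes Ifi205 had 3.02, 1.39 and 3.07 CPM and Ifi204 had 5.34, 2.6 and 3.4 CPM. Cx3cr1 Cx43-/- nodes overlapped the depleted range, with Ifi205 at 5.02, 6.64 and 1.66 CPM and Ifi204 at 5.47, 10.18 and 5.34 CPM. Depleted over control was 1.90 (SE 0.40, adjusted p = 0.00105) for Ifi205 and 1.48 (SE 0.32, adjusted p = 0.00143) for Ifi204. The chemokine Cxcl10 had 1.17, 2.74 and 3.57 CPM in depleted, 0, 0.29 and 0.93 CPM in Cx3cr1 Cx43-/- and 0.37, 0.17 and 0.59 CPM in control nodes, and Oas1b was the other gene called higher (1.02, SE 0.36, adjusted p = 0.0315). The RNA helicase Mov10 had 3.69, 3.84 and 2.42 CPM in depleted, 8.53, 8.97 and 8.85 CPM in Cx3cr1 Cx43-/- and 10.3, 8.35 and 8.67 CPM in control nodes (-1.35, SE 0.27, adjusted p = 0.00079). Gbp9 had 1.4, 3.09 and 2.43 CPM in depleted, 8.58, 10.2 and 11.3 CPM in Cx3cr1 Cx43-/- and 7.42, 5.80 and 5.93 CPM in control nodes (-1.33, SE 0.30, adjusted p = 0.00186). The related Gbp4 and the death ligand Tnfsf10 (Trail) were also lower on all 3 scales. Against Cx3cr1 Cx43-/- nodes 3 of the 51 were called higher and 27 lower as deposited, led by Gbp9 (-1.95), Tnfsf10 (-1.92), Gbp4 (-1.63) and Gbp7 (-1.48), and 8 and 8 with median-of-ratios scaling, beside 2.69% and 40.7% of all tested genes as deposited and 13.1% and 12.9% with median-of-ratios scaling. In Cx3cr1 Cx43-/- over control nodes 0 genes of any of these lists were called.

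**Figure D5:**
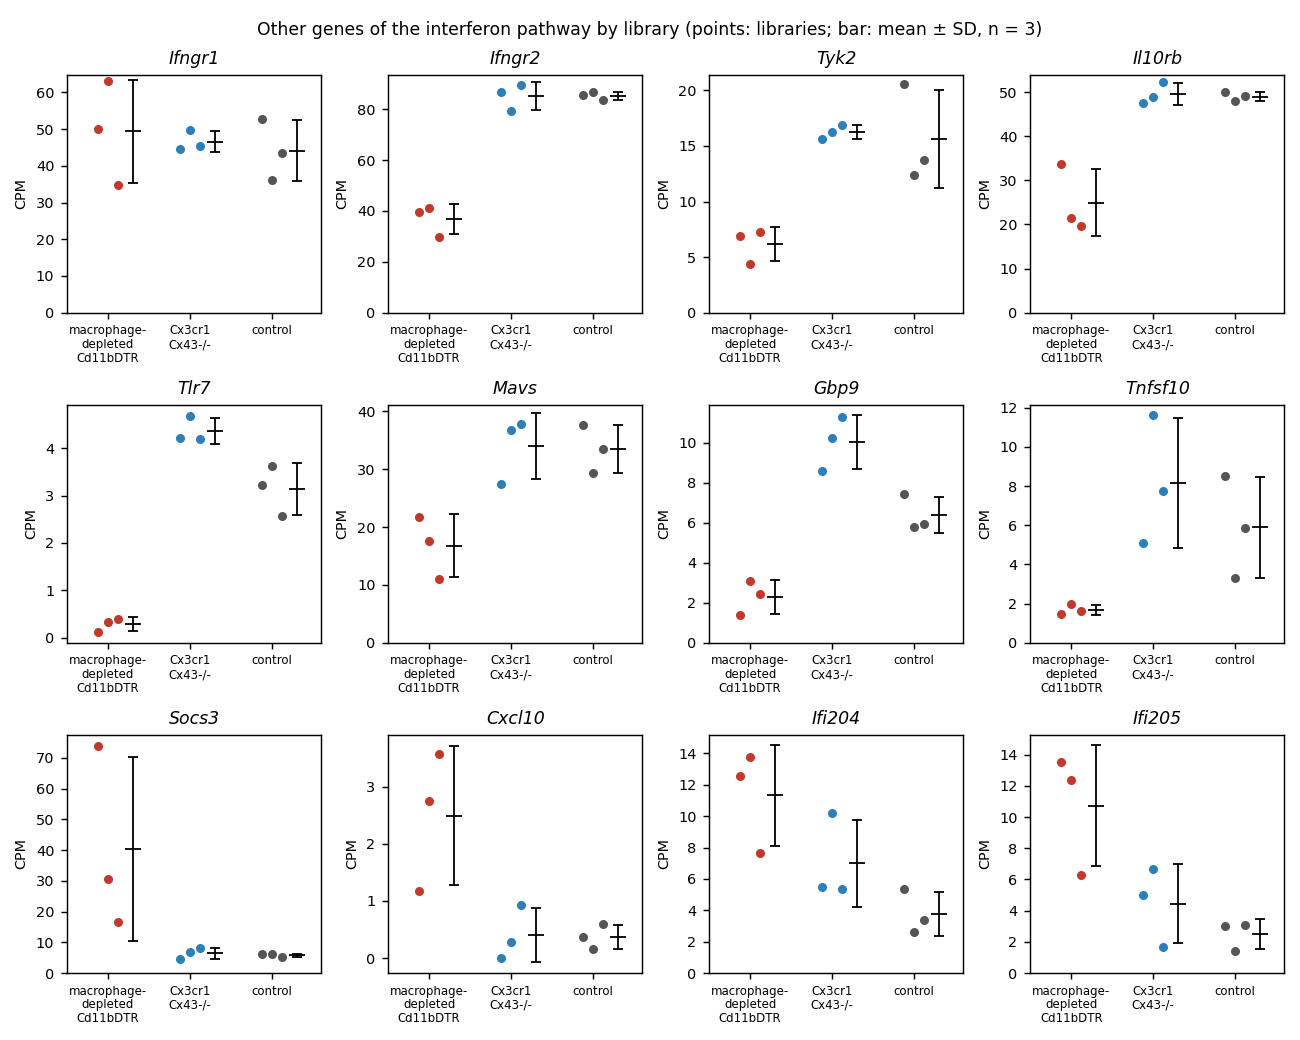
CPM (vertical axes) of 12 further genes of the interferon pathway in macrophage-depleted, Cx3cr1 Cx43-/- and control libraries; points are libraries and bars the mean ± SD of 3. Ifngr2, Tyk2, Il10rb, Tlr7, Mavs, Gbp9 and Tnfsf10 are lowest in the depleted libraries, and Socs3, Cxcl10 and Ifi205 lie above control in all 3 of them.

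Other cell types also moved with depletion. Of 7 monocyte genes tested, 5 were called higher in depleted than in control nodes as deposited, beside 3.23% of all tested genes. The 9 monocyte genes measured summed to 341 to 471 CPM in depleted libraries. Their sums were 199 to 241 CPM in Cx3cr1 Cx43-/- and 178 to 209 CPM in control libraries. Chi3l3, a monocyte and macrophage lectin, was at 28.7, 26.4 and 12.4 CPM in depleted and 0.02, 0 and 0.03 CPM in control nodes, and the monocyte receptor Ccr2 at 6.16, 8 and 15.1 CPM and 6.53, 1.65 and 4.45 CPM. The 10 neutrophil genes summed to 1.32 to 6.12 CPM in depleted, 1.60 to 2.74 CPM in Cx3cr1 Cx43-/- and 0.78 to 1.32 CPM in control libraries, with Ly6g at 0 in all 9. The 15 T and NK cell genes summed to 0.88 to 4.92, 3.27 to 8.49 and 2.32 to 4.95 CPM in depleted, Cx3cr1 Cx43-/- and control libraries, and the 6 B cell genes to 0 to 0.09, 1.03 to 1.30 and 0.80 to 2.38 CPM. Siglech, which marks the plasmacytoid dendritic cells that make much type I interferon, was at 0 in all 3 depleted libraries, 0.31 to 1.09 CPM in Cx3cr1 Cx43-/- and 0 to 0.51 CPM in control libraries. The 8 genes of that list, Bst2 among them, summed to 407 to 668 CPM in depleted, 640 to 705 CPM in Cx3cr1 Cx43-/- and 694 to 740 CPM in control libraries, but most of each sum was Cox6a2, a cytochrome oxidase subunit also expressed in striated muscle (359.56 to 616 CPM in depleted, 557 to 632 CPM in Cx3cr1 Cx43-/- and 625 to 674 CPM in control libraries). Siglech, Ccr9, Ly6d and Klk1 each stood between 0 and 1.1 CPM. The 9 endothelial genes summed to 227 to 411 CPM in depleted, 577 to 671 CPM in Cx3cr1 Cx43-/- and 416 to 613 CPM in control libraries, and the 10 cardiomyocyte genes to 18047 to 30555, 39033 to 40502 and 33964 to 41535 CPM. The part of these cells in the values of the interferon-stimulated genes was not tested.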

How the data were processed

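The 9 libraries were made from total RNA after DNase treatment with a directional kit, per the labels' protocols. The submitters' processing notes list the mm9 build and, with no role stated, the tools edgeR, HTSeq (0.6.0) and STAR (2.3.0). The deposited table holds CPM with 2 decimals. Each of the 9 columns was matched to its sample by name. Tests used log2(CPM + 0.5) in 1 limma model (version 3.58.1, R 4.3.3) of 9 libraries with trended empirical Bayes variance, two-sided, over genes that reached 1 CPM in 3 or more libraries. Fold changes on this scale understate those of low genes. The smallest two-sided p of an exact permutation test on 3 against 3 libraries is 0.1. The fit was tested on simulated data. The members, lists and tests were chosen with earlier results of these data known. Members called on any of the 3 scales, or with a group apart from both others, are given library by library. Up to 4 called genes with the smallest p are named per pathway list and comparison, and a few further genes were named after their values were seen. Promoters are those of the RefSeq table for GRCm38.p6, not the build of the counts. Stretches of 50 bases shared between transcripts were counted in the GENCODE transcripts of that assembly. Alternatives were other pseudocounts, filters and scalings, quality weights, 2-group fits and each library left out. 1 gene is not reported here. Figures were drawn with matplotlib 3.10.9.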

Additional observations from a re-analysis of the deposited data

How the results depend on the processing

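The counts of called interferon-stimulated genes depended on the scaling. In depleted over control nodes the 3 called higher became 9 with a common total and 11 with median-of-ratios scaling, and the 1 called lower became 0 with both, 2 with a pseudocount of 2, 7 with library quality weights and 0 when only those 2 groups were fitted. In depleted over Cx3cr1 Cx43-/- nodes the 1 called higher became 0 with no filter, 2 with a common total, 3 with median-of-ratios scaling and 2 with quality weights. The 14 called lower there became 7 with no filter and 0 with a common total or median-of-ratios scaling. With each library left out in turn, these 4 counts ranged from 2 to 7 (without library 1 they were 5 higher, and without library 7, 7 higher), from 0 to 4, from 0 to 1 and from 2 to 12, the lowest without library 5. Cx3cr1 Cx43-/- over control gave 0 under every alternative run. Irf9 in depleted over Cx3cr1 Cx43-/- nodes went from -0.01 (SE 0.24), without a clear direction, to 0.54 with median-of-ratios scaling. The cause of these changes was not tested, beyond that rescaling moves the median of all genes. No paired analysis was possible because the libraries are numbered 1 to 9 across the groups and the groups share no number. A gene at 0 had no counted read, since 1 read was worth 0.0154 to 0.0192 CPM. A level below about 3 reads, 0.0462 to 0.0576 CPM, can be missed in a library, which limits Mx1, Oas1a and the interferon genes.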
